A study of Mus musculus with 6 samples.

Results

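The cathepsins and cystatin C were followed here in the lining cells of lymphatic vessels (lymphatic endothelial cells, LECs), taken from healthy skin and from tumors. All probe sets whose platform annotation gives a single symbol among Ctsa, Ctsb, Ctsc, Ctsd, Ctsh, Ctsk, Ctsl, Ctss, Ctsz and Cst3 were taken, which gave 21 of the 45037 probe sets tested and 10 of 18193 named genes. The study holds 6 mouse arrays, 1 per sample. Of these, 3 carry normal LECs from mammary skin of healthy balb-c/nude mice, and 3 carry tumor-associated LECs from MDA-MB-435 xenografts, a human cancer line injected subcutaneously and excised after 8 weeks. Nude mice lack mature T cells, the line, once a common model of breast cancer, was later found to derive from a melanoma, and the labels give no age or sex of the animals. In both groups a short immunostain for LYVE-1, which lymphatic vessels carry as a receptor for hyaluronan, marked the cells to be cut out with a laser. The labels speak of biological replicates without tying each to an animal, so the p-values measure the spread between these samples, and 3 arrays per group limit their precision.

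Cathepsins are proteases that are made as inactive precursors and work mainly inside lysosomes, where they break down proteins taken up by or worn out in the cell. Most are cysteine proteases of the papain family (cathepsins B, L, S, K, C, H and Z). Cathepsin D is an aspartic protease, and cathepsin A a serine carboxypeptidase. Some are also secreted and can cleave the matrix around vessels, and cystatin C, the product of Cst3, is a secreted inhibitor that blocks the cysteine cathepsins outside the cell. Macrophages are among the cells richest in these proteases.

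Signals are log2 values of the deposited intensities. Background was set per array from 27 probe sets for bacterial genes, at their 95th percentile, and lay between 2.96 and 3.91 (log2). Of the 21 probe sets, 12 were above it on all 6 arrays, 7 on some and 2 on none. Lyve1, whose protein guided the capture, had 3.21, 7.58 and 6.81 in healthy-skin replicates 1, 2 and 3, and between 9.41 and 9.65 in the tumor samples; the value of healthy-skin replicate 1 was below that array's background. Keratinocyte markers were present in both groups. Of 16 measured, 15 had negative differences and none passed limma's threshold. At an unadjusted limma p under 0.05, 8 of the 16 were lower, against 4.28% of all genes. The list differed from its healthy-skin mean by -1.48, -1.87 and -3.16 (log2) in tumor replicates 1, 2 and 3. Krt5 and Krt14, keratins of the basal layer, were within the healthy-skin range in tumor replicate 1 (10.53 and 9.23). In that same sample Krt10 read 6.37, against 9.14 to 10.28 in healthy skin. A bulk capture cannot tell fewer cells of a type from less RNA per cell.

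Cathepsin signal was highest in a single tumor sample, replicate 2, for nearly every gene, and Ctsb had the largest difference between the groups. With each gene given by its probe set of highest mean, 9 of the 10 genes had their highest value of the 6 arrays in tumor replicate 2, Ctsk being the exception, whereas 13.0% of all 18193 genes did. Counted by probe set this was 15 of 21, against 12.4% of all. In that sample the genes lay between 0.53 and 3.72 log2 units above their own healthy-skin mean, with a median of 2.69, against a median of -0.05 over all genes. The same median was 0.26 in tumor replicate 1 and -0.24 in tumor replicate 3, where the medians of all genes were 0.07 and 0.13. Every healthy-skin value was exceeded by tumor replicate 2 in 9 of the 10 genes (21.5% of all genes), by tumor replicate 1 in 4 (27.0%) and by tumor replicate 3 in 2 (33.5%).

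**Figure D1:**
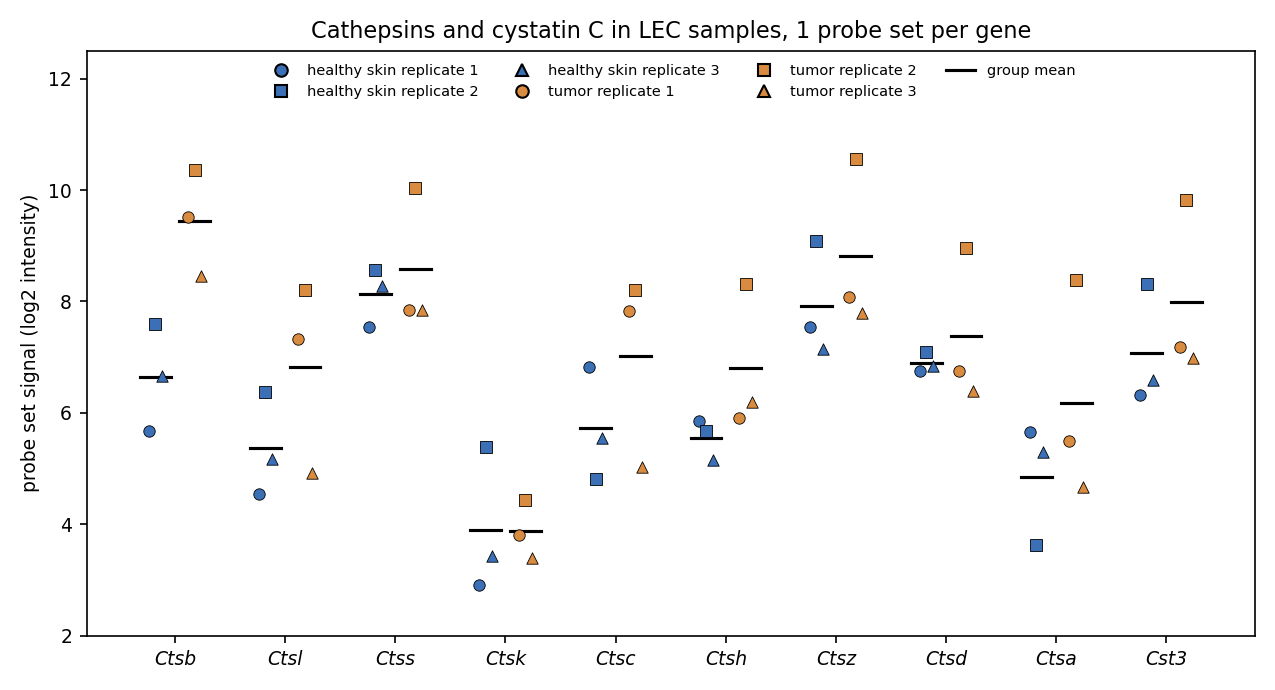
Signal (log2 intensity) of each gene's probe set of highest mean in the 3 healthy-skin samples (blue) and the 3 tumor samples (orange), with replicates 1, 2 and 3 as circles, squares and triangles and the group mean as a black line. Tumor replicate 2 is the highest point of 9 of the 10 genes, and Ctsb is the gene whose groups lie farthest apart; levels of different genes are not comparable.

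As a group difference, 9 of the 10 genes were higher in the tumor samples and Ctsk was not, with a median log2 difference of 1.09, against 0.08 over all genes, of which 57.3% were higher. By probe set 16 of 21 were higher, against 55.5% of all. No probe set of these genes passed limma's threshold of an adjusted p under 0.05, which 2 probe sets passed over the whole array (0.00444%). At an unadjusted limma p under 0.05 there were 2 of 21, both of Ctsb and both higher in the tumor samples, against 2.83% of all probe sets that were higher by this measure (1 of 10 genes, against 3.22% of all genes). The groups did not overlap, with every tumor value on top, in 4 of 21 probe sets, against 6.22% of all; these were 2 of Ctsb and 1 each of Ctsc and Ctsh. Counted by gene these were Ctsb and Ctsh, 2 of 10, against 6.58% of all genes, and without tumor replicate 2 the same count was 2 of 10, against 16.1%. Without tumor replicate 2 the median over the 10 genes was 0.12, the same as that over all genes (0.12), and 7 of the 10 were higher, against 59.2% of all genes.

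**Figure D2:**
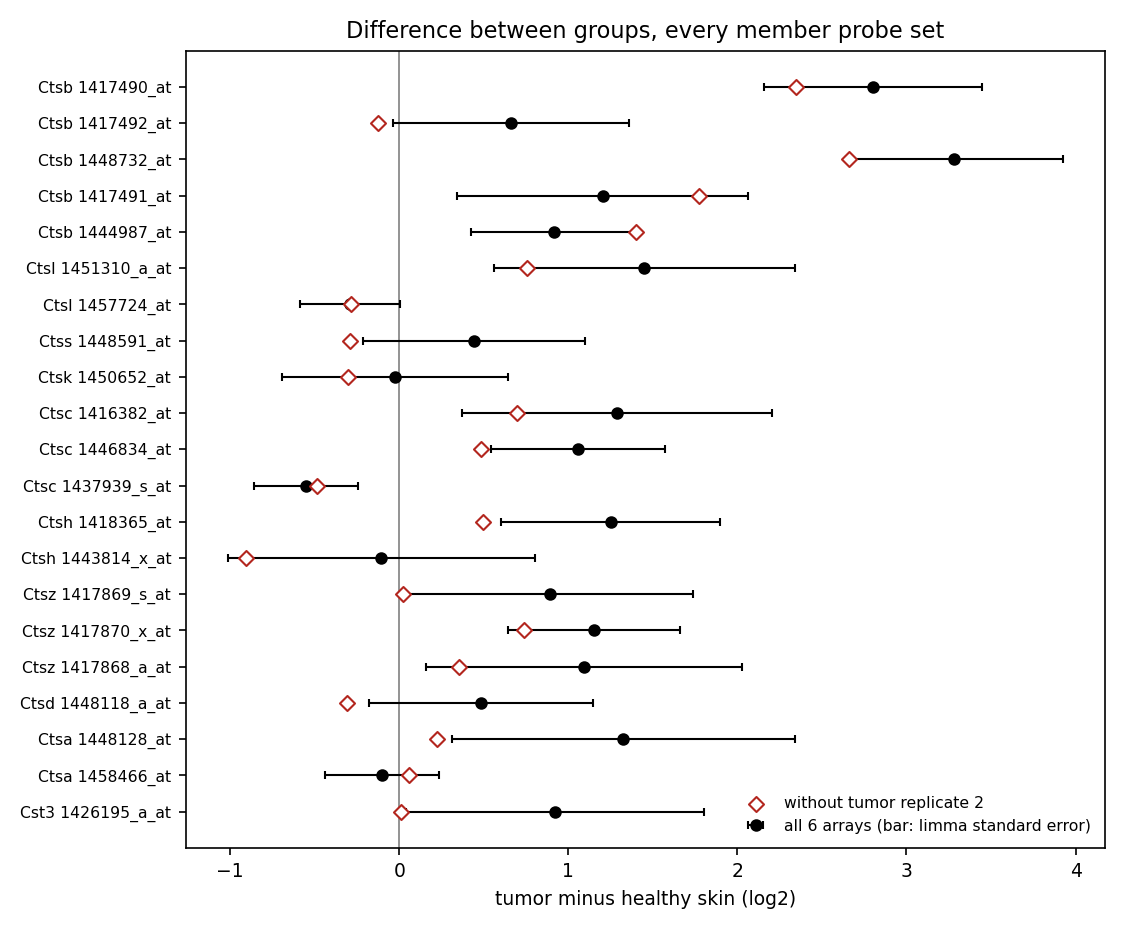
Tumor minus healthy skin (log2) for every probe set, with limma's standard error over all 6 arrays (black circles and bars) and the difference without tumor replicate 2 (open red diamonds). Without that sample the 2 leading Ctsb probe sets differ by 2.35 and 2.66, while Cst3 differs by 0.92 with it and by 0.01 without it.

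Ctsb encodes cathepsin B, which cuts proteins internally and also trims dipeptides from their ends. On probe set 1417490_at it read 5.67, 7.59 and 6.67 in healthy-skin replicates 1, 2 and 3, and 9.51, 10.36 and 8.46 in tumor replicates 1, 2 and 3. Every tumor sample was thus above every healthy-skin sample, and the lowest tumor value, that of replicate 3, exceeded the highest healthy one. The means were 6.64 ± 0.96 and 9.45 ± 0.95 (SD, n = 3 arrays per group), a log2 difference of 2.80 with a standard error of 0.64, or 6.98-fold (limma adjusted p = 0.517, unadjusted p = 0.00354). Probe set 1448732_at gave 3.66, 4.14 and 3.15 in healthy skin and 6.96, 8.17 and 5.66 in the tumor samples, in the same order of the tumor replicates. Its healthy-skin values lay at or close to background, and it differed by 3.28 with a standard error of 0.64 (limma adjusted p = 0.383, unadjusted p = 0.00151). Without tumor replicate 2 these differences were 2.35 and 2.66 (limma adjusted p = 0.51 and 0.316). The tumors grew from a human line, and the part of human RNA in these signals was not tested.

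The other 3 Ctsb probe sets did not separate the groups. Probe set 1417492_at was high in tumor replicate 2 alone, at 6.25, against 3.78 in tumor replicate 1 and at most 4.47 in healthy skin. On 1417491_at the high sample was tumor replicate 1 instead, at 6.48, against 3.29 and 3.52 in the others and 2.73 to 3.83 in healthy skin. On 1444987_at tumor replicates 1 and 3 read 4.76 and 4.11, and replicate 2, at 2.98, lay within the healthy-skin range of 2.69 to 3.41. Both of these last probe sets were above background on at most 3 of the 6 arrays. Their differences were 0.66 ± 0.70, 1.20 ± 0.86 and 0.91 ± 0.49 (limma standard errors), so all 5 Ctsb probe sets were higher in the tumor group, by unequal amounts; without tumor replicate 2 the difference on 1417492_at was -0.13.

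**Figure D3:**
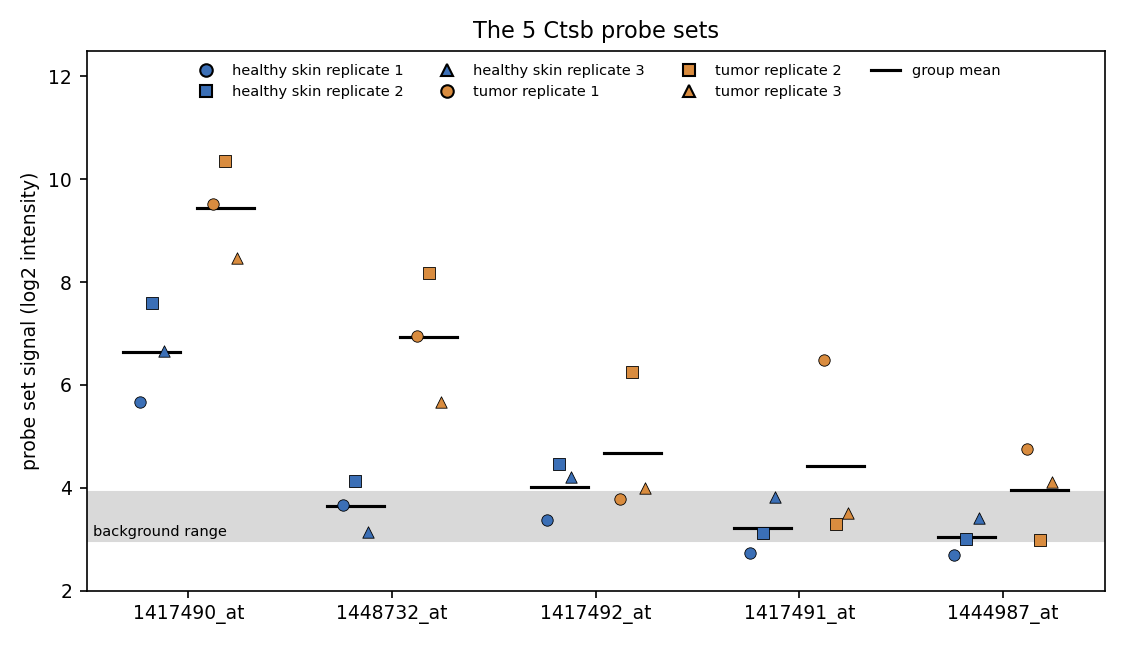
Signal (log2 intensity) of the 5 Ctsb probe sets by sample, colored and shaped by group and replicate as in the plot of all genes, with the background range of the arrays shaded. All tumor values lie above all healthy-skin values on 1417490_at and 1448732_at; on the other 3 a single tumor sample, or 2 of them, stand out.

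Ctsl encodes cathepsin L, an endopeptidase of lysosomes that can also cleave matrix proteins. On 1451310_a_at it read 4.55, 6.38 and 5.17 in healthy skin and 7.32, 8.20 and 4.92 in tumor replicates 1, 2 and 3. Tumor replicates 1 and 2 were above all healthy-skin samples and replicate 3 was among them, so the groups overlapped. The difference was 1.45 with a standard error of 0.89 (limma adjusted p = 0.867), and 0.76 without tumor replicate 2. The other Ctsl probe set, 1457724_at, was below background on every array (2.43 to 3.18) and is not described further.

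Ctsc encodes cathepsin C, or dipeptidyl peptidase I, which activates the granule proteases of immune cells. It resembled Ctsl in the order of the tumor samples, with 6.82, 4.82 and 5.55 in healthy skin and 7.82, 8.20 and 5.03 in the tumor samples on 1416382_at. Tumor replicate 3 again lay within the healthy range, and the difference of 1.29 with a standard error of 0.92 did not pass (limma adjusted p = 0.87), and was 0.70 without tumor replicate 2. Probe set 1446834_at read 3.26, 3.68 and 3.60 against 3.90, 5.72 and 4.09. Here the groups did not overlap, but tumor replicate 1 exceeded the highest healthy value by little, and the difference was 1.06 ± 0.51 (limma standard error, adjusted p = 0.824), and 0.48 without tumor replicate 2. The remaining probe set, 1437939_s_at, stayed below background throughout.

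Ctss, Ctsd and Cst3 shared a pattern in which tumor replicate 2 alone stood above healthy skin. Ctsa on 1448128_at and Ctsz on 1417869_s_at, given further below, had it too. Ctss encodes cathepsin S, which removes the invariant chain from MHC class II in antigen-presenting cells. It read 7.53, 8.57 and 8.28 in healthy skin and 7.84, 10.04 and 7.84 in the tumor samples. Tumor replicates 1 and 3 were within the healthy range, and the group difference of 0.44 with a standard error of 0.66 (limma adjusted p = 0.932) became -0.29 without replicate 2.

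Ctsd encodes the aspartic protease cathepsin D, a standard marker of lysosomes. Its healthy-skin values were the closest together of the 10 genes, at 6.75, 7.08 and 6.83. In the tumor samples it read 6.76, 8.96 and 6.40, so that only replicate 2 lay above healthy skin and replicate 3 lay below it. The difference was 0.48 with a standard error of 0.66 (limma adjusted p = 0.925), and -0.31 without replicate 2.

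Cst3, the cystatin C gene, had the same high tumor sample as the proteases it inhibits. It read 6.31, 8.31 and 6.60 in healthy skin and 7.19, 9.81 and 6.98 in the tumor samples, highest in replicate 2 of each group. The difference of 0.92 with a standard error of 0.88 did not pass (limma adjusted p = 0.893), and without tumor replicate 2 it was 0.01. In tumor replicates 1 and 3 it differed from its own healthy-skin mean by 0.11 and -0.09, where Ctsb on 1417490_at differed from its mean by 2.87 and 1.82.

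Ctsh encodes cathepsin H, an aminopeptidase. On 1418365_at it read 5.85, 5.67 and 5.16 in healthy skin and 5.92, 8.31 and 6.19 in the tumor samples. The groups did not overlap, although the lowest tumor value and the highest healthy one nearly coincided, and the difference was 1.25 ± 0.65 (limma standard error, adjusted p = 0.843), and 0.50 without tumor replicate 2. Its other probe set, 1443814_x_at, whose suffix marks probes that may bind other transcripts, differed by -0.11 ± 0.91, and by -0.91 without tumor replicate 2, with 6.48 in healthy-skin replicate 1 and 6.54 in tumor replicate 2.

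Ctsz encodes cathepsin Z, a carboxypeptidase that also binds integrins. Its 3 probe sets all had their highest value in tumor replicate 2, at 10.56, 6.80 and 6.95 on 1417869_s_at, 1417870_x_at and 1417868_a_at. On the brightest, 1417869_s_at, healthy skin read 7.53, 9.09 and 7.15 and tumor replicates 1 and 3 read 8.09 and 7.80. The groups overlapped on each, with differences of 0.89 ± 0.85, 1.15 ± 0.51 and 1.09 ± 0.93 (limma standard errors; limma adjusted p between 0.802 and 0.892). Without tumor replicate 2 these differences were 0.02, 0.74 and 0.35.

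Ctsa encodes cathepsin A, which also protects the lysosomal enzymes beta-galactosidase and neuraminidase 1 in a complex. On 1448128_at it read 5.65, 3.62 and 5.29 in healthy skin and 5.49, 8.38 and 4.67 in the tumor samples, and tumor replicate 2 led the next highest sample by 2.73, the widest lead of the 9 genes. The difference was 1.32 with a standard error of 1.01 (limma adjusted p = 0.875), and 0.23 without that sample. Probe set 1458466_at did not show the lead, with 4.01 in tumor replicate 2 and 4.04 to 4.93 in healthy skin. Among the genes of the partner enzymes Neu1 differed by -0.06 and Glb1 by -0.42, and neither had its highest value in tumor replicate 2.

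Ctsk encodes cathepsin K, the collagen-degrading protease known from osteoclasts, and was the gene that stood apart. It read 2.90, 5.38 and 3.43 in healthy skin and 3.81, 4.44 and 3.39 in the tumor samples. Its highest value was in healthy-skin replicate 2, it was above background on 4 of 6 arrays, and the groups differed by -0.02 with a standard error of 0.67 (limma adjusted p = 0.997). Without healthy-skin replicate 2 the difference was 0.71.

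The windows before the genes' start sites hold several known motifs, and those around an E-box or an interferon-stimulated response element (ISRE) are shown because lysosomal genes share the former as a binding site of TFEB and its relatives, and Ctss is known as an interferon-responsive gene. RefSeq promoter sequences of GRCm38.p6, from 250 bases before to 50 after a start site, matched 8 of the 10 genes in 9 windows; Ctsb and Ctsh were not matched. The E-box, searched as CACGTG on both strands, which read alike, lay in the windows of Ctsa, Ctsd and Ctsl, 3 of 8 genes, and in 7.15% of all 32851 windows. The ISRE, searched on both strands as a pair of GAAA copies with any 2 bases between them, lay in that of Ctss alone, and in 3.44% of all windows. Capitals mark the motif in each stretch, which ends before the start site and is written 5′ to 3′ on the gene's strand.
Ctsa, chr2:164833749-164833772, plus strand, 12 bases before an internal start site: tgagcaaactgtCACGTGatgcag
Ctsd, chr7:142388037-142388077, minus strand, 245 bases before: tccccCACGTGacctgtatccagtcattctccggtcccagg
Ctsd, chr7:142387890-142387955, minus strand, 98 bases before: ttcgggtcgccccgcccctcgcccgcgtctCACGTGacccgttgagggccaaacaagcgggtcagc
Ctsl, chr13:64370739-64370768, minus strand, 236 bases before an internal start site: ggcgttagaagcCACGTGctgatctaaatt
Ctss, chr3:95526735-95526785, plus strand, 21 bases before: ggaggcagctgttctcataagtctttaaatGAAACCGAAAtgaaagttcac
A match is a stretch of letters and not a measured site. Another copy of the E-box in Ctsa lies 6 bases after that start site and is not shown. Among the genes with an E-box Ctsd differed by 0.48, Ctsa by 1.32 and Ctsl by 1.45, where the matched genes without one ranged from -0.02 (Ctsk) to 1.29 (Ctsc), and all 3 were highest in tumor replicate 2, as were Ctss, Ctsz, Ctsc and Cst3. Of the transcription factors that act on lysosomal genes, Tfeb differed by 0.50 (4.34, 4.13 and 3.58 in healthy skin and 4.96, 4.19 and 4.39 in tumors; limma adjusted p = 0.87) and Tfe3 by -0.44. Mitf read 6.71 in tumor replicate 2, against 3.18 and 2.31 in the other tumor samples and 4.01 to 5.17 in healthy skin. Its group difference was -0.49. Of the 5 factors measured 4 had negative differences, with a median of -0.45. In tumor replicate 2 the 5 factors averaged -0.13 from their healthy-skin mean. This average pools Zkscan3, at -3.24, with Mitf at 2.15, Tfec at 0.50, Tfeb at 0.17 and Tfe3 at -0.23. Zkscan3, known as a repressor of lysosomal genes, read 2.62, 5.25 and 6.05 in healthy skin and 1.71, 1.41 and 3.11 in tumors. It was above background in no tumor sample, but healthy-skin replicate 1 was below its background too. The groups overlapped, and the difference did not pass (limma adjusted p = 0.716). Zkscan3 was the only 1 of these 5 factors with an unadjusted limma p under 0.05, against 4.28% of all genes that were lower by this measure.

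Other genes of the lysosome had differences in both directions. The list of 39 measured lysosomal hydrolases and membrane proteins had a median difference of -0.06, with 19 positive and 20 negative; none passed limma's threshold, and at an unadjusted limma p under 0.05 there were 2 higher and 0 lower, against 3.22% and 4.28% of all genes. These were Galc, the galactosylceramidase gene, with 5.26, 4.79 and 3.38 in healthy skin and 6.65, 6.56 and 5.93 in tumors (difference 1.90 ± 0.52, limma adjusted p = 0.595), and Cln3, a lysosomal membrane protein gene, with 1.10 ± 0.42 (limma adjusted p = 0.736). In tumor replicate 2 the list averaged 0.65 above its healthy-skin mean. Of its 39 genes 13 had their highest value there, against 13.0% of all genes. Among them were Hexa, a hexosaminidase subunit (9.44, against at most 6.73 elsewhere), and Psap, the precursor of the saposins (10.37, against at most 8.87). Lgmn encodes legumain, a protease that processes cathepsin precursors. It was above background in tumor replicate 2 alone (6.68), and its group difference did not pass limma's threshold (limma adjusted p = 0.812). Mcoln1, the gene of a lysosomal calcium channel, differed by -1.02 ± 0.55 (limma adjusted p = 0.852). Galc was high in all 3 tumor samples, as Ctsb was on 1417490_at and 1448732_at, whereas Lgmn, Hexa and Psap had their high value in tumor replicate 2.

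Genes with a part in sorting proteins to the lysosome differed among themselves. Of 11 measured, 7 were positive and 4 negative, where 57.3% of all genes were positive, and the median was 0.18. None passed limma's threshold, and 2 were higher at an unadjusted limma p under 0.05, against 3.22% of all genes. M6pr, the cation-dependent mannose 6-phosphate receptor that sorts the precursors, read 5.28, 6.80 and 7.77 in healthy skin and 8.22, 8.54 and 8.01 in tumors, without overlap (difference 1.64 ± 0.62, limma adjusted p = 0.735). Gga2, an adaptor of that receptor, differed by 2.05 ± 0.66 (limma adjusted p = 0.684), and its relative Gga1 by 0.78 ± 0.35 (limma adjusted p = 0.804). Gnptab, which encodes the enzyme that begins the mannose 6-phosphate tag, went the other way by -0.90 ± 0.38 (limma adjusted p = 0.789).

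The other cathepsins and cystatins were mostly dim, with 2 to 4 of 14 cathepsins and 5 to 7 of 14 cystatins above background per array. Among 14 other cathepsins, many of them known from the rodent placenta, 10 differences were positive and 4 negative, with a median of 0.13. None passed limma's threshold, and 2 of 14 were highest in tumor replicate 2, against 13.0% of all genes. Ctsw, the cathepsin of cytotoxic lymphocytes and the only 1 with an unadjusted limma p under 0.05 (4.28% of all genes were lower by this measure), read 4.76, 4.36 and 5.11 in healthy skin and 3.94, 3.98 and 4.06 in tumors, without overlap (difference -0.75 ± 0.29, limma adjusted p = 0.753). Ctse, an aspartic cathepsin, read 8.14 in tumor replicate 2 and 3.62 and 5.52 in the others, against 6.15 to 7.70 in healthy skin. Of 14 other genes of the cystatin family 6 were positive and 8 negative, with a median of -0.11. None passed limma's threshold, and 0 of 14 were highest in tumor replicate 2, against 13.0% of all genes. Kng1, which encodes kininogen, read 4.66, 4.83 and 5.31 in tumors, above every healthy-skin value (difference 0.80 ± 0.29, limma adjusted p = 0.727). Cstb, the intracellular inhibitor cystatin B, read 9.70, 9.29 and 10.39 in healthy skin and 9.42, 9.41 and 8.17 in tumors, a difference of -0.79 ± 0.47 (limma adjusted p = 0.864), opposite in sign to Cst3.

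Macrophage markers had the same high sample. Of 23 measured macrophage genes 21 had positive differences (57.3% of all genes), and 18 were highest in tumor replicate 2 (13.0% of all genes). None passed limma's threshold, and 5 were higher at an unadjusted limma p under 0.05 (3.22% of all genes). Their summed intensity was 13283 in that sample, against 3884 and 3778 in tumor replicates 1 and 3 and 2511 to 4261 in healthy skin. As a mean of log2 values the list was 2.09 above its healthy-skin mean in replicate 2, and 0.10 and 0.31 above it in replicates 1 and 3, where the cathepsins and Cst3 averaged 2.52, 0.77 and -0.04. Of the 23 markers 22 were above background in replicate 2 and 17 to 21 on the other arrays; no marker had a signal of 0, and Itgam was above background on no array. Ms4a7, a membrane protein gene of macrophages, read 2.52, 3.95 and 4.16 in healthy skin and 5.09, 7.95 and 6.54 in tumors (difference 2.98 ± 0.78, limma adjusted p = 0.579). Csf1r, the receptor for colony-stimulating factor 1, read 8.16, 8.43 and 7.96 in healthy skin and 9.29, 11.24 and 9.52 in tumors, and C1qc, a complement subunit made by macrophages, read 8.55 in tumor replicate 2 and at most 5.13 elsewhere. Mrc1 and Ptprc had negative differences (-1.76 and -1.32), and Cd68 was highest in healthy-skin replicate 1 (9.55). The part of macrophage RNA in the cathepsin values was not tested. Csf1r and Ms4a7 were above every healthy-skin value in all 3 tumor samples, as Ctsb was on 1417490_at. Of the macrophage markers 5 of 23 had this pattern. So did 5 of the 11 LEC markers and 8 of the 13 pan-endothelial markers, against 6.58% of all genes.

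**Figure D4:**
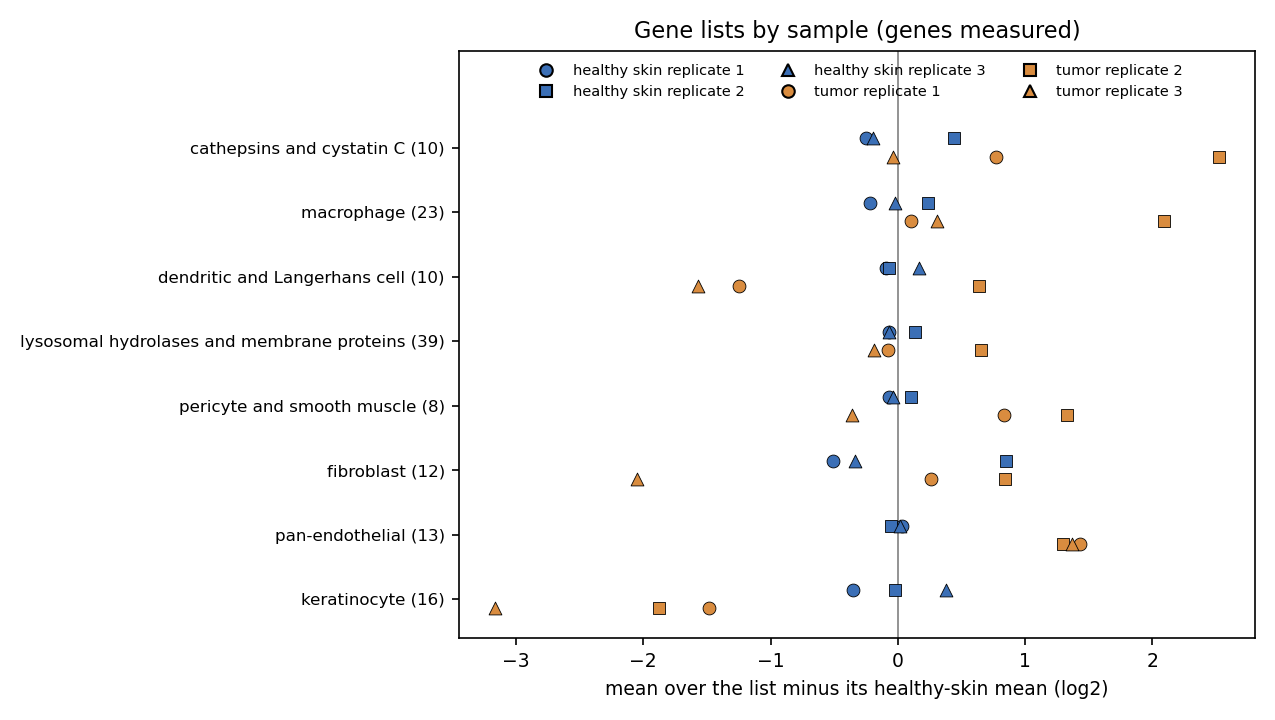
Mean log2 signal of each gene list minus its mean over the 3 healthy-skin samples, by sample (healthy skin blue, tumor orange; circles, squares and triangles for replicates 1, 2 and 3; number of genes measured in brackets). Cathepsins with Cst3 and macrophage markers both have tumor replicate 2 far to the right (2.52 and 2.09) and the other tumor samples below 0.8, whereas pan-endothelial markers have all 3 tumor samples together, at 1.30 to 1.43.

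No gene of the other marker lists passed limma's threshold. Dendritic and Langerhans cell markers, 10 measured, were 0.64 above their healthy-skin mean in tumor replicate 2 and at -1.25 and -1.57 from it in replicates 1 and 3 (summed intensity 4609, 403 and 299, against 1423 to 1729 in healthy skin). Pericyte and smooth muscle markers, 8 measured, averaged 0.84, 1.33 and -0.36 in tumor replicates 1, 2 and 3. Fibroblast markers, 12 measured, averaged 0.26, 0.84 and -2.05, against -0.51 to 0.85 in healthy skin. These 3 lists had tumor replicate 2 highest and replicate 3 lowest of the tumor samples, as did 9 of the 10 genes, all but Ctsh; their part in the result was not tested. The 13 pan-endothelial markers, all with positive differences, averaged 1.43, 1.30 and 1.37 above healthy skin, and the 11 LEC markers, 10 of them positive, 0.78, 1.21 and 1.28, with no lead of replicate 2. Mast cell and neutrophil markers were dim, with 1 to 3 of 8 and 2 to 3 of 7 above background per array. Hybridization controls were not lowest or highest in tumor replicate 2 (12.78, against 12.33 to 13.36 elsewhere), nor was its share of probe sets above background (46.6%, against 39.6% to 56.0%). A technical cause of the lead of tumor replicate 2 was not tested.

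The genes most like the cathepsins were sought by Pearson's r over the 6 arrays among 11614 other genes above background on at least 3 arrays, as a description. All points share the same arrays, and so many genes searched over 6 arrays give high r by their number. For the mean of the 10 genes these were Tnfrsf1b, a receptor of tumor necrosis factor that myeloid cells carry (r = 0.997; 8.40 in tumor replicate 2 and at most 6.90 elsewhere), Col16a1, a collagen chain (r = 0.994), Ilrun (r = 0.988), Sult6b1 (r = 0.988) and the matrix protease gene Mmp11 (r = 0.983). For Ctsb they were Tln1, which encodes the integrin linker talin 1 (r = 0.985; 3.49, 4.86 and 3.68 in healthy skin and 6.83, 7.55 and 6.13 in tumors), A730028G07Rik (r = 0.983), the cationic amino acid transporter gene Slc7a2 (r = 0.977), the hexokinase gene Hk1 (r = 0.977) and the tropomyosin gene Tpm4 (r = 0.974). For Cst3 they were Acss1, Agpat3, Cd200, Araf and Cpped1 (r between 0.987 and 0.998). Of the neighbors of Ctsb, Tpm4 overlapped between the groups (6.70 in tumor replicate 3 and 6.76 in healthy-skin replicate 2). The others were above every healthy-skin value in all 3 tumor samples. For A730028G07Rik, however, tumor replicate 3 (3.39) and healthy-skin replicates 1 and 2 (2.97 and 3.25) were below background. The neighbors of Cst3 had replicate 2 highest in each group. The 3 sets had no gene in common.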

How the data were processed

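RNA from microdissected LECs was extracted, amplified by a single round of Ribo-SPIA, labelled with biotin and hybridized to Affymetrix mouse arrays, per the labels' protocols. The deposited table holds 1 linear intensity per probe set and array, made with RMA (background correction, quantile normalization, summary of probes) per the submitters' processing notes. That it is linear follows from the range of the values; the sources used here give no software version, filter or genome build.

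The deposited values were converted to log2 with no pseudocount, and the 64 control probe sets were left out. Symbols came from the platform annotation. The tumor and healthy groups were set against each other in limma 3.58.1 (R 4.3.3; lmFit and eBayes, two-sided) over 45037 probe sets, with Benjamini-Hochberg adjustment and a threshold of 0.05; the script was tested on simulated data. A gene is its probe set of highest mean over 6 arrays. All columns were used. Bacterial controls were taken as background because no label says their transcripts were added. Named were all members on every probe set, for each other list the genes of smallest p or values cited beside a member, and the 5 genes most alike. Krt5, Krt14, Lyve1, Hexa, Psap, Neu1, Glb1, Tfe3, Mitf, Ctse, C1qc, Mrc1, Ptprc, Cd68 and Itgam were named after their values were seen. Members and lists were chosen with earlier results of these data known.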

Additional observations from a re-analysis of the deposited data

How the results depend on the processing

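Over all probe sets 2 were called, and 21 when dim probe sets were left out, 22 with array weights, 1 with eBayes trend and robust options, 1 with an unmoderated statistic, 0 after centring on array medians, 0 with log2 of the value plus 16, and 0 with the replicate number as a block; leaving out single arrays gave 0 to 23, highest without tumor replicate 2. No cathepsin or Cst3 probe set was called under any of these. The median over the 10 genes was 1.09; it ranged from 0.12 to 1.49 when single arrays were left out, lowest without tumor replicate 2, and was 0.49 with array weights and 0.59 with all probe sets of a gene averaged. Of 251 member differences recomputed, 13 changed sign. Leaving out single arrays gave -0.52 to 0.71 for Ctsk (positive without healthy-skin replicate 2, 0.71, tumor replicate 1, 0.0080, or 3, 0.22), -0.30 to 0.15 for Ctsa 1458466_at, -0.91 to 0.61 for Ctsh 1443814_x_at, -0.13 to 1.11 for Ctsb 1417492_at, -0.31 to 0.97 for Ctsd and -0.29 to 0.81 for Ctss, these last 3 negative without tumor replicate 2. Array weights gave 0.14 for Ctsa 1458466_at and -0.051 for Ctss, and the dim unsuffixed probe set gave -0.29 for Ctsl. The cause was not tested. Equal replicate numbers did not deviate together (r = 0.044, 0.10 and -0.013), so no pairing was assumed. Values near background, such as those of Ctsk, limit what the arrays show.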
